A study of Mus musculus with 18 samples.

Results

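The interferon regulatory factors and interferon-stimulated genes were followed here as 43 genes of the 52093 gene symbols in the expression tables. They were chosen by symbol, with 1 transcript row per symbol, namely the row with the highest mean RPKM (read counts scaled by transcript length and by the number of mapped reads) over all 18 samples. The list holds 8 interferon regulatory factors, Stat2, 4 receptor subunits, 3 RNA sensors, 18 antiviral effectors, 2 genes of the Isg15 system, 3 GTPases and 4 genes of the immunoproteasome and peptide transport. RNA was sequenced from male wild-type C57BL/6 mice that consumed a HFD for 12 weeks and were 16 weeks old. The substrain is C57BL/6J in a protocol of the labels and C57BL/6NTac in the supplement of the study. The groups were inguinal adipocytes (iWAT, n = 6), epididymal adipocytes (eWAT, n = 6) and brown fat (BAT, n = 6). All 18 samples came from wild-type animals on the HFD, and mice on another diet were not analysed here. A field of the labels gives chow for every sample, but the titles and the design of the series give the HFD. White adipocytes were the floating layer left after collagenase digestion. BAT was frozen whole, although a label field calls it adipocytes. The numbers in the sample names were taken as names, because the labels do not say that a number marks a mouse, and p-values then measure only the spread between these samples.

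Type I interferons signal through a receptor made of Ifnar1 and Ifnar2, and interferon-gamma through Ifngr1 and Ifngr2. Type I receptors activate Stat2, which joins Irf9 in the ISGF3 complex. ISGF3 binds the interferon-stimulated response element (ISRE) in the promoters of antiviral genes. Interferon-gamma acts mainly through the gamma-activated site (GAS), which leads to Irf1, guanylate-binding proteins and the machinery that loads peptides on MHC class I. In fat, macrophages, endothelial cells and adipocytes can all carry these receptors. Irf5 and Irf8 are known above all from myeloid cells, and Irf4 is also known as a regulator of lipid handling and heat production in adipocytes.

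The letters of both elements were looked up in the RefSeq promoter windows of the members (build GRCm38.p6, 250 bases before to 50 bases after each start site). Windows were given for 37 of the 43 members. Dhx58, Mx1, Mx2, Oas2, Usp18 and Tap2 had no entry. The ISRE core was searched as GAAANNGAAA and the GAS as TTCNNNGAA, on both strands. The stretches below are those of members whose values the results turn on, 60 bases each, written 5′ to 3′ on the strand of the gene and with every match in capitals. They were found by exact match in the NCBIM37 (mm9) genome, the build of the files, and none of them lies in the transcript row of its gene. The first 4 belong to members that were higher in iWAT than in eWAT adipocytes, and Oas1a and Oas3 to members that were higher in eWAT. Irf1 and Irf8 show the GAS in factors that were far higher in both white depots than in BAT.
Isg15 (ISRE core, chr4:155574965-155575024, minus strand): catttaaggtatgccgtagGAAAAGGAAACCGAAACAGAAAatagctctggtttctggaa
Ifit1 (ISRE core, chr19:34715259-34715318, plus strand): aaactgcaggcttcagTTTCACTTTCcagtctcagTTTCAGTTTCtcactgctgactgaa
Ifit3 (ISRE core, chr19:34657855-34657914, plus strand): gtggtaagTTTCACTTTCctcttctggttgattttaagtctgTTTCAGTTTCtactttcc
Gbp3 (ISRE core, chr3:142222941-142223000, plus strand): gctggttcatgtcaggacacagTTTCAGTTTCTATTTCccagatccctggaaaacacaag
Oas1a (ISRE core, chr5:121357539-121357598, minus strand): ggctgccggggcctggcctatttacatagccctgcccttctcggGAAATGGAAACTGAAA
Oas3 (ISRE core, chr5:121227709-121227768, minus strand): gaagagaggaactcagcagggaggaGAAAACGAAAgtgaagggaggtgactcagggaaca
Irf1 (GAS, chr11:53583400-53583459, plus strand): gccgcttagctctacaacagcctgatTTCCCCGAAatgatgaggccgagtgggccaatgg
Irf8 (GAS, chr8:123260070-123260129, plus strand): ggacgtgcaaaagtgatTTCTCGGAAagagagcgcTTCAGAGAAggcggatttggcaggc

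The ISRE core stood in the windows of 16 of the 37 members with an entry (43.2%), against 3.99% of the 27025 symbols in the whole promoter table and 3.44% of its 32851 windows. The GAS was found in 12 of the 37 members (32.4%), against 9.55% of all symbols and 8.3% of all windows. In 2 of the 4 member windows that held both, the matches overlapped. Isg15 had 3 overlapping copies of the ISRE core, and Ifit1 and Ifit3 had 2 separate ones each. Neither set of letters stood in the windows of Irf3, Irf4, Irf5, Irf7, Irf9, Ifngr1, Ifngr2, Oasl1, Oasl2, Ifitm1, Xaf1, Psmb9 and Tap1. Of the 18 members with an entry that were higher in iWAT than in eWAT adipocytes, 11 held the ISRE core, and of the 10 that were higher in eWAT adipocytes, 3 did. A match of letters is a description of the window and no evidence of binding in these samples.

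**Figure D1:**
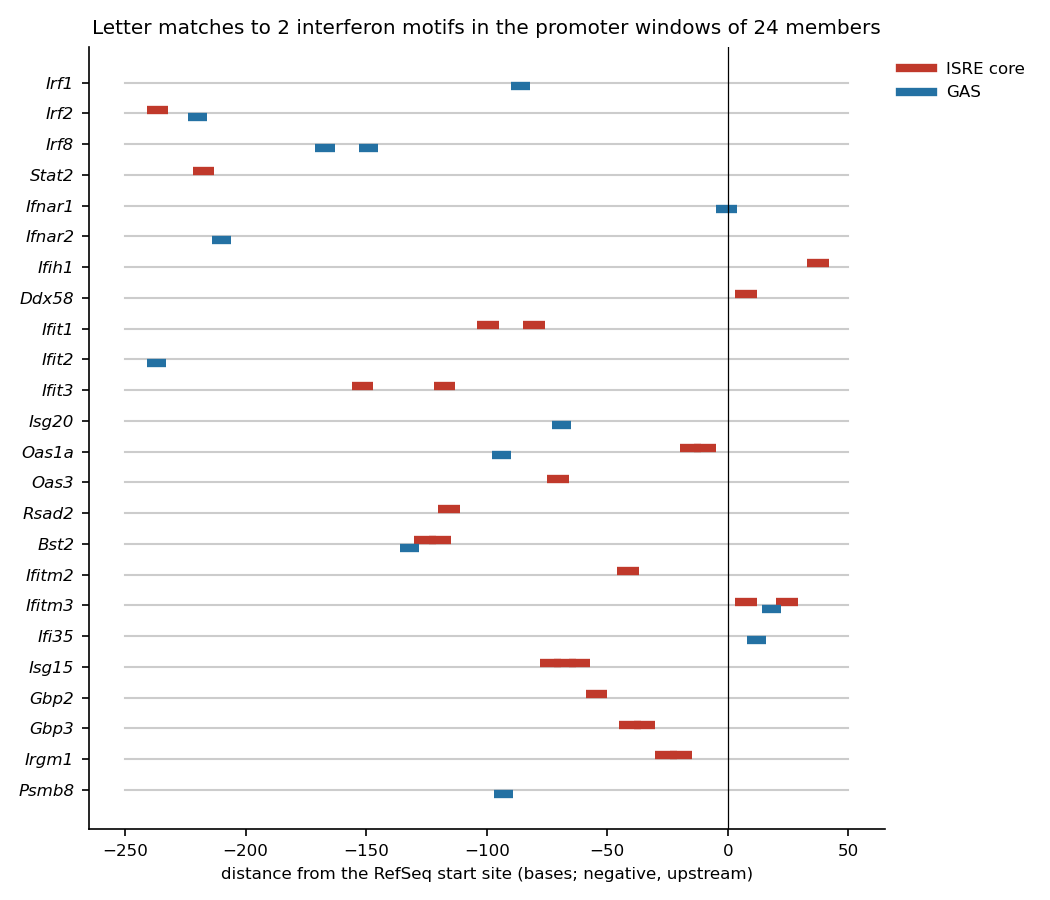
Distance from the RefSeq start site in bases (x axis) of letter matches to the ISRE core (red) and the GAS (blue) in the promoter windows of the 24 members with a match (y axis). Most ISRE cores lay within the 250 bases upstream of the start, and those of Ifih1, Ddx58 and Ifitm3 lay after it.

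Reads on the rows numbered 24655056 to 42518483 per sample. In whole BAT, Ucp1 was 1858 ± 237 RPKM (n = 6), against 2.26 ± 0.591 in iWAT and 0.261 ± 0.0844 in eWAT adipocytes. Adipoq was 1127 ± 166 RPKM in iWAT, 387 ± 178 in eWAT and 221 ± 29.5 in BAT. Markers of macrophages were present in the white depots, summing over 11 genes to 560 to 1080 RPKM in the iWAT samples, 3245 to 5057 in eWAT and 38.7 to 76.7 in BAT. None of the 11 had 3 reads or fewer in all samples of a tissue. In bulk samples like these, fewer cells of a type and less RNA per cell cannot be told apart. Levels are given as deposited RPKM, while fold changes, their standard errors and adjusted p-values come from edgeR (quasi-likelihood, TMM normalization), fitted to read counts. Statements on overlap between groups are about TMM-scaled RPKM. The mean TMM factor was 1.21 in iWAT, 1.27 in eWAT and 0.658 in BAT, so that scaled BAT levels are higher relative to the white depots than RPKM shows. BAT was sequenced in lanes of its own and not digested, so tissue, isolation and lane cannot be told apart in any comparison with BAT.

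A mean of at least 1 RPKM was reached by 39 of the 43 members in iWAT adipocytes, by 39 in eWAT adipocytes and by 31 in BAT. The most abundant were the membrane proteins that block virus entry. Ifitm2 stood at 77.3 to 101 RPKM in the iWAT samples (median 84.5), 76.8 to 108 in eWAT (median 88.7) and 28.9 to 45.8 in BAT (median 38.6). Ifitm3 ranged from 62.6 to 154 (median 84.4), from 56.2 to 82.2 (median 66.1) and from 24.5 to 35.8 RPKM (median 31.3) in the same order. Ifngr1 and Bst2 were also among the 5 highest in all 3 tissues, joined by Gbp2 in iWAT adipocytes, Irf5 in eWAT adipocytes and Ifnar2 in BAT. Across the 43 members, the median coefficient of variation over the 6 samples was 17.5% in iWAT, 14.2% in eWAT and 15.6% in BAT.

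Between the white depots, 21 of the 43 members were higher in iWAT adipocytes (48.8%), where 34.1% of all 19623 genes tested were called in that direction. Another 11 members were higher in eWAT adipocytes (25.6%), against 34.5% of all genes. The 6 samples of each depot did not overlap for 12 members higher in iWAT (19% of all genes) and for 9 members higher in eWAT (24.5% of all genes). The median log2 fold change of the members, iWAT over eWAT, was 0.20, and that of all genes was 0.00. Of the members called, the larger group had higher levels in iWAT, led by Ifit3, Gbp3, Usp18, Gbp2 and Ifit1. The smaller group had higher levels in eWAT, led by Irf5, Oas3, Oas1a, Ifngr2 and Oasl1, and its share was below that of all genes. The other 11 members were not called. A call in either direction was made for 74.4% of the members and for 68.6% of all genes. Without scaling beyond the total count, 16 members were higher in iWAT and 13 in eWAT adipocytes. In that setting 13283 of all 19623 genes were called in either direction. Of the 32 members called with TMM, 22 passed the threshold within lane 1 alone (2 iWAT and 4 eWAT samples). Within lane 2 alone (4 iWAT and 2 eWAT samples) 24 of the 32 passed. All 32 had the same direction within both lanes, but they were called on these same samples, so this is no separate support. Counted over all 43 members, 22 were called within lane 1 and 25 within lane 2. Of all genes, 7300 of 19450 were called within lane 1 and 9923 of 19830 within lane 2.

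Against BAT, the members were mostly higher in white fat. In iWAT adipocytes, 36 members were higher than in BAT (83.7%) and 3 were lower (6.98%), against 38.1% and 37.2% of all 19745 genes tested. The samples did not overlap for 30 members higher in iWAT (28.0% of all genes) and 2 higher in BAT (28.5% of all genes), and the median log2 fold change was 0.99, with 0.01 for all genes. In eWAT adipocytes, 28 members were higher than in BAT (65.1%) and 5 were lower (11.6%), against 41.1% and 41.4% of all 20076 genes tested. The samples did not overlap for 21 members higher in eWAT (32.5% of all genes) and 2 higher in BAT (33.9% of all genes), and the median was 0.66, with -0.02 for all genes. Both comparisons share the BAT samples. There were 27 members higher than BAT in both white depots, and Irf3 alone was higher in BAT than in both. Scaling matters here, since without it the median of all genes moves to 0.87 for iWAT over BAT and 0.89 for eWAT over BAT. The members then split 41 to 0 and 40 to 0, while 16757 of 19745 and 17026 of 20076 genes were called in either direction.

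**Figure D2:**
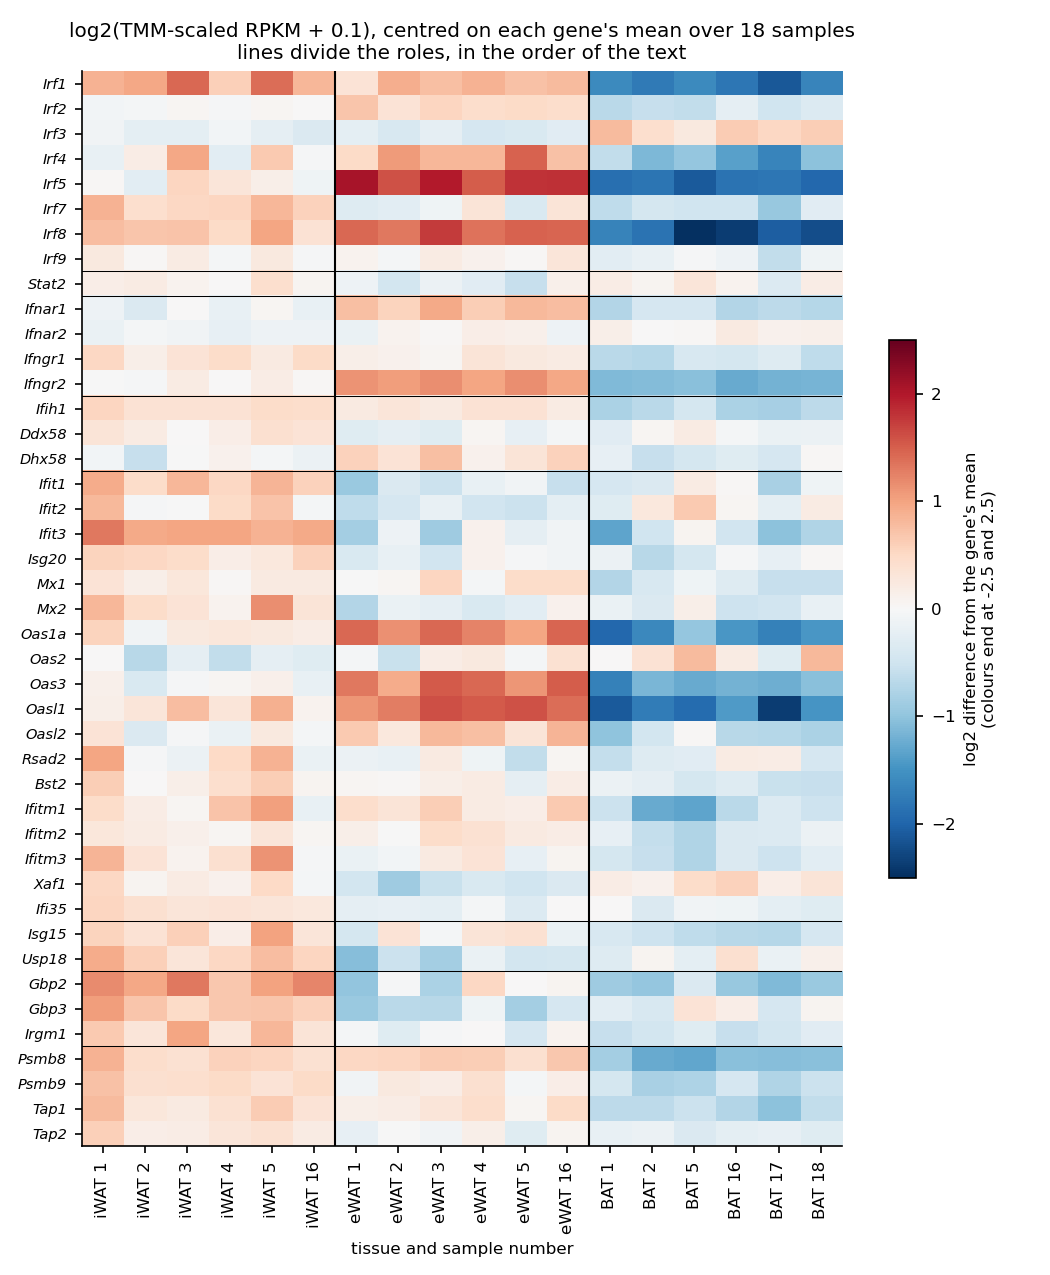
Each row is a member and each column 1 of the 18 samples. Colour gives log2(TMM-scaled RPKM + 0.1) minus the gene's mean over all samples, with red above and blue below it. Irf5, Irf8, Oas1a, Oas3 and Oasl1 were highest in the eWAT columns, the Ifit and Gbp genes in the iWAT columns, and most rows were lowest in BAT.

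The interferon regulatory factors differed from each other in their pattern. All 8 passed the test in both comparisons with BAT, where 75.3% (iWAT) and 82.5% (eWAT) of all genes passed in either direction. Irf5, known for inflammatory polarization of macrophages, had 9.39, 13.2 and 16.7 RPKM as the lowest, median and highest iWAT sample. In eWAT adipocytes these values were 33.1, 41.2 and 49.8, and in BAT 1.65, 1.99 and 2.25. The 3 tissues did not overlap. Irf5 was 3.19-fold higher in eWAT than in iWAT adipocytes (log2 fold change -1.67 ± 0.14 SE, adjusted p = 5.4e-07), 4.26-fold higher in iWAT than in BAT (adjusted p = 5.2e-10) and 13.9-fold higher in eWAT than in BAT (adjusted p = 3.4e-13). Its row overlaps one of Tnpo3, so some reads could belong to that gene.

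Irf8, a factor of myeloid development, stood at 3.88 to 6.65 RPKM in iWAT (median 4.95), 7.79 to 10.8 in eWAT (median 8.63) and 0.261 to 0.601 in BAT (median 0.411). No sample of one tissue reached the range of another. Its level was 1.73-fold higher in eWAT than in iWAT adipocytes (log2 fold change -0.79 ± 0.11, adjusted p = 3.4e-05). Over BAT the difference was 7.86-fold in iWAT (adjusted p = 1.8e-10) and 13.9-fold in eWAT (adjusted p = 5.7e-12). The row overlaps one of LOC100503115, which averaged 10.5 RPKM, so some reads could belong to either. A BAT level of 0.418 RPKM on average is low, and the macrophage markers stood lowest in BAT too. Their part in these differences was not tested.

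Irf1, which interferon-gamma induces, gave a different order. It had 19.1 to 35.4 RPKM in iWAT (median 24.0), 16.2 to 23.6 in eWAT (median 21.8) and 1.93 to 2.74 in BAT (median 2.53). The white depots overlapped and their difference missed the threshold (log2 fold change 0.32 ± 0.14, adjusted p = 0.061), although it passed when iWAT sample 1, 4 or 16 was left out (0.36 to 0.40, adjusted p = 0.020 to 0.049), with DESeq2 (0.34, adjusted p = 0.043) and with lane as a covariate (0.39, adjusted p = 0.035). Against BAT, Irf1 was 7.24-fold higher in iWAT (adjusted p = 1.3e-10) and 5.89-fold higher in eWAT adipocytes (adjusted p = 9.9e-12), with no overlap. Of all members, it had the second largest fold change between iWAT adipocytes and BAT after Irf8. The Irf1 row overlaps one of another symbol, which averaged 4.45 RPKM.

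Irf2, an antagonist of Irf1 at many promoters, ranged from 4.33 to 5.15 RPKM in iWAT (median 4.61), from 5.90 to 7.73 in eWAT (median 6.43) and from 1.90 to 2.37 in BAT (median 2.19). It was 1.42-fold higher in eWAT than in iWAT adipocytes (adjusted p = 1.6e-05), and higher than BAT by 1.42-fold in iWAT (adjusted p = 2.7e-05) and 2.05-fold in eWAT (adjusted p = 5.4e-08). The tissues did not overlap. Irf4 was 2.06 to 4.88 RPKM in iWAT (median 2.57), 3.57 to 7.05 in eWAT (median 4.53) and 0.497 to 1.07 in BAT (median 0.763). It was 2.80-fold higher in iWAT than in BAT (adjusted p = 4.3e-05) and 4.45-fold higher in eWAT than in BAT (adjusted p = 5.5e-08). Between the white depots it was 1.56-fold higher in eWAT (adjusted p = 0.022), with overlap, and that call was lost without eWAT sample 5 (log2 fold change -0.51, adjusted p = 0.055) or iWAT sample 1 (-0.54, adjusted p = 0.060). With lane as a covariate the Irf4 difference was -0.51 (adjusted p = 0.063), and it passed within neither lane.

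Irf4 had 2 rows in the tables. The row used, by its higher RPKM, has 1 exon on the minus strand (chr13:30856827-30858700), while the other, with 9 exons on the plus strand (chr13:30841095-30858796), lies on the strand of the annotated gene. The 9-exon row gave 2.68 ± 1.09 RPKM in iWAT, 4.54 ± 1.15 in eWAT and 0.581 ± 0.183 in BAT, the same order as the 3.11 ± 1.18, 4.88 ± 1.21 and 0.728 ± 0.209 of the row used. The handling of strand is not given in the sources used here, so reads on the 2 rows cannot be told apart.

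Irf7, which amplifies type I interferon production, was the one factor of this family that was higher in iWAT than in eWAT adipocytes. Its level was 4.12 to 6.15 RPKM in iWAT (median 4.63), 2.38 to 4.0 in eWAT (median 2.81) and 1.09 to 1.69 in BAT (median 1.38). Every iWAT sample was above every eWAT sample. Irf7 was 1.64-fold higher in iWAT than in eWAT (log2 fold change 0.71 ± 0.15, adjusted p = 7.5e-04). It was 2.35-fold above BAT in iWAT (adjusted p = 1.3e-07) and 1.46-fold above BAT in eWAT (adjusted p = 0.0036), the latter with overlap. Its row is a single block of 3776 bases that overlaps a row of Phrf1.

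Irf9, the DNA-binding part of ISGF3, did not pass the test between the white depots. It stood at 3.94 to 5.20 RPKM in iWAT (median 4.36), 3.98 to 5.13 in eWAT (median 4.42) and 1.82 to 2.54 in BAT (median 2.39). The log2 fold change of iWAT over eWAT was 0.00 ± 0.08 (adjusted p = 0.99), and both depots were above BAT by 1.28-fold and 1.30-fold (adjusted p = 0.0051 and 0.0029), with overlap. The Irf9 row overlaps one named Irf9/Rnf31, which averaged 3.04 RPKM.

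Irf3, the constitutive factor that acts downstream of the sensors, went the other way. Its RPKM was 5.46 to 7.16 in iWAT (median 6.32), 5.31 to 6.35 in eWAT (median 5.71) and 5.43 to 8.55 in BAT (median 7.01). On the TMM scale the BAT samples stood at 7.62 to 11.2, above the 4.95 to 6.08 of iWAT and the 4.76 to 5.48 of eWAT adipocytes. With TMM, Irf3 was 1.67-fold higher in BAT than in iWAT (adjusted p = 2.0e-06) and 1.80-fold higher than in eWAT (adjusted p = 3.7e-07), but without scaling the log2 fold changes turned to 0.12 and 0.06. Between the white depots Irf3 missed the threshold (0.14, adjusted p = 0.077), but it passed without iWAT sample 16 (0.17, adjusted p = 0.032) and with DESeq2 (0.16, adjusted p = 0.032). The row overlaps one of Bcl2l12.

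**Figure D3:**
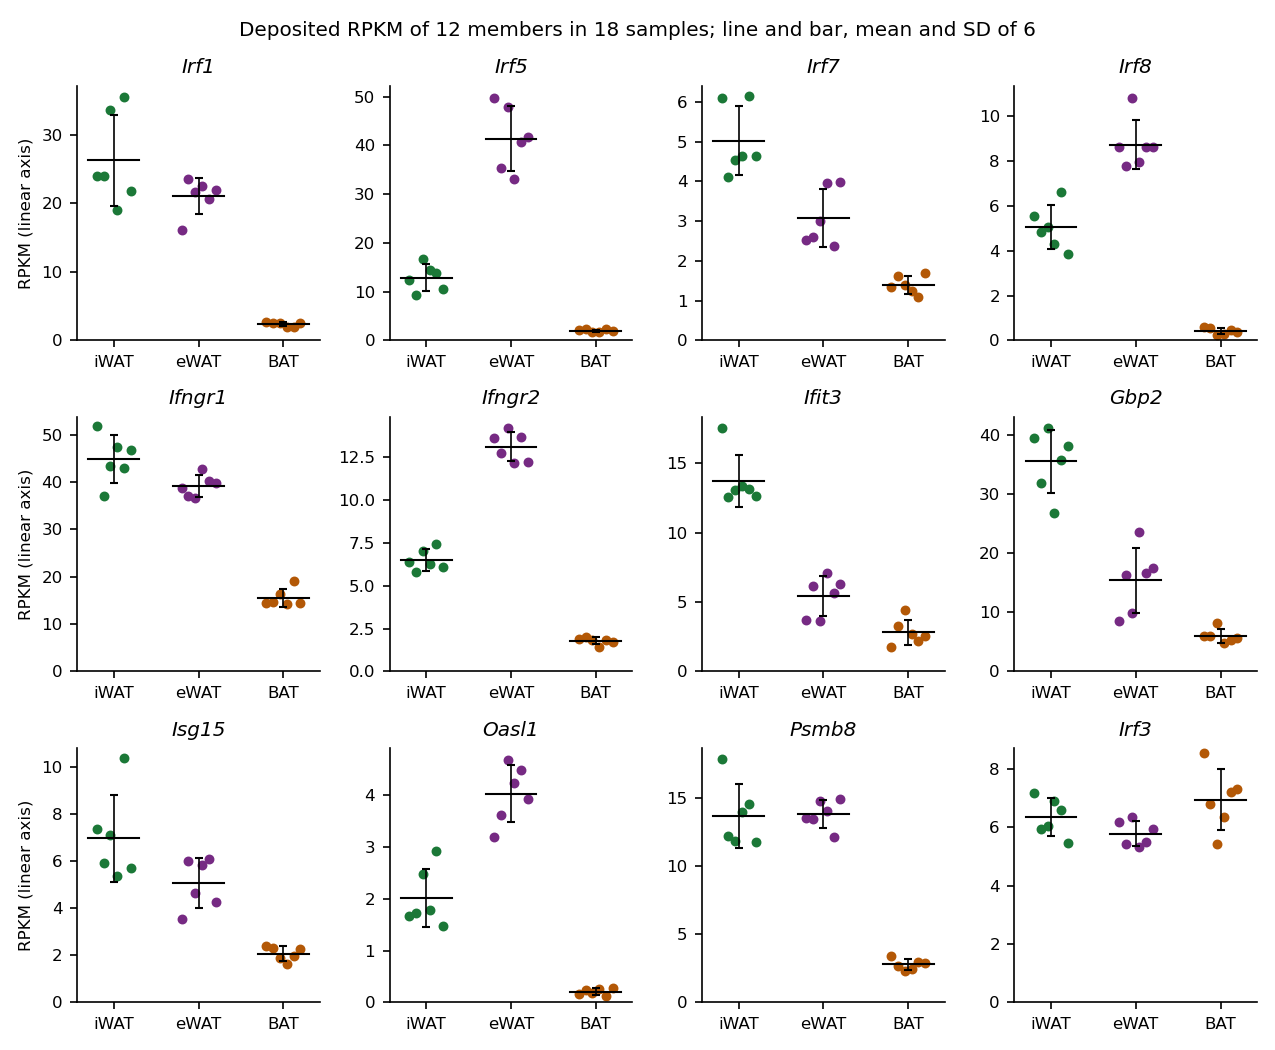
Deposited RPKM (linear y axis from 0) of 12 members in each of the 6 samples of iWAT adipocytes, eWAT adipocytes and BAT (x axis). Points are samples in the order of their numbers, and the line and bar are the mean and SD. Irf5, Irf8, Ifngr2 and Oasl1 were highest in eWAT, Ifit3, Gbp2 and Irf7 in iWAT, and Irf3 alone had its highest mean in BAT.

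Stat2, the ISGF3 partner of Irf9, had 4.17 to 5.94 RPKM in iWAT (median 4.46), 2.70 to 4.56 in eWAT (median 3.57) and 2.22 to 3.20 in BAT (median 3.04). It was 1.33-fold higher in iWAT than in eWAT adipocytes (adjusted p = 0.0078), with overlap. Against BAT it passed in neither depot (log2 fold change 0.10, adjusted p = 0.41 in iWAT, and -0.28, adjusted p = 0.059 in eWAT). The second difference passed without BAT sample 17 (-0.37, adjusted p = 0.011) or eWAT sample 16 (-0.36, adjusted p = 0.018), and without scaling it turned to 0.63.

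The 4 receptor subunits did not move as pairs. Ifnar1 was 4.55 to 6.67 RPKM in iWAT (median 5.56), 9.00 to 12.0 in eWAT (median 10.5) and 2.04 to 3.14 in BAT (median 2.53), with no overlap between any 2 tissues. It was 1.84-fold higher in eWAT than in iWAT (adjusted p = 2.0e-06), 1.43-fold higher in iWAT than in BAT (adjusted p = 7.4e-05) and 2.67-fold higher in eWAT than in BAT (adjusted p = 1.4e-09). Its partner Ifnar2 stood at 17.8 to 20.1 RPKM in iWAT (median 18.9), 18.6 to 22.7 in eWAT (median 21.4) and 13.1 to 15.3 in BAT (median 14.5). The white depots overlapped for Ifnar2 (log2 fold change -0.14, adjusted p = 0.066), and the difference passed without eWAT sample 1 (-0.18, adjusted p = 0.022) or eWAT sample 16 (-0.17, adjusted p = 0.036), without scaling (-0.22, adjusted p = 0.0075) and in 1 fit of all 18 samples (-0.15, adjusted p = 0.041). With TMM, Ifnar2 was 1.2-fold higher in BAT than in iWAT adipocytes (adjusted p = 0.0039) and did not pass against eWAT (-0.05, adjusted p = 0.49), while without scaling both turned, to 0.64 and 0.86. The row of Ifnar2 runs into that of Il10rb.

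The interferon-gamma receptor showed the same split. Its signalling subunit Ifngr2 was 5.80 to 7.46 RPKM in iWAT (median 6.32), 12.2 to 14.2 in eWAT (median 13.2) and 1.40 to 1.99 in BAT (median 1.83), and the tissues were far apart. Ifngr2 was 2.01-fold higher in eWAT than in iWAT (log2 fold change -1.01 ± 0.06, adjusted p = 1.7e-07), 2.39-fold higher in iWAT than in BAT (adjusted p = 1.9e-10) and 4.90-fold higher in eWAT than in BAT (adjusted p = 3.3e-13). The ligand-binding subunit Ifngr1 was more abundant, at 37.0 to 51.8 RPKM in iWAT (median 45.1), 36.6 to 42.9 in eWAT (median 39.3) and 14.3 to 19.1 in BAT (median 14.6). The white depots overlapped, with 1.15-fold more in iWAT (adjusted p = 0.031), a call that was lost without iWAT sample 1, 4 or 16 or eWAT sample 1, 2 or 3 (log2 fold change 0.17 to 0.19, adjusted p = 0.050 to 0.070), without scaling (0.12, adjusted p = 0.19) and in 1 fit of all 18 samples (0.19, adjusted p = 0.058). Against BAT, Ifngr1 was 1.89-fold higher in iWAT (adjusted p = 2.1e-07) and 1.67-fold higher in eWAT (adjusted p = 7.6e-07).

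**Figure D4:**
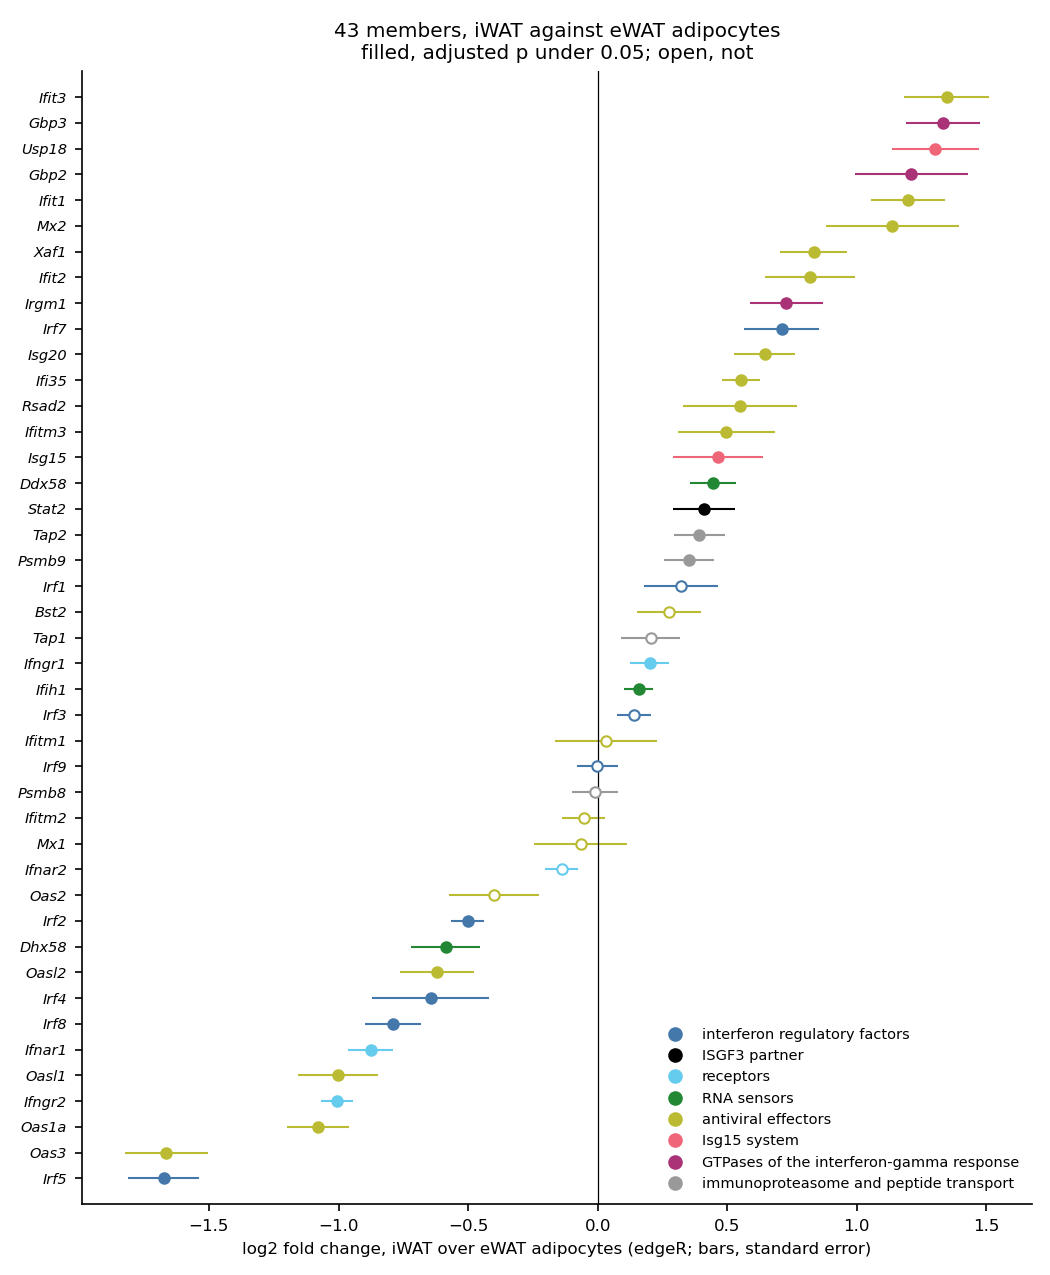
Log2 fold change of iWAT over eWAT adipocytes (x axis) for the 43 members (y axis, ordered by it) from edgeR with TMM, coloured by role. Bars are standard errors, filled points passed an adjusted p of 0.05, and values below 0 mean more RNA in eWAT. Values run from -1.67 for Irf5 to 1.35 for Ifit3, and the factors, receptors and effectors each lie on both sides of 0.

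Among the RNA sensors, Ifih1 (MDA5) and Ddx58 (RIG-I) were higher in iWAT and Dhx58 (LGP2) was higher in eWAT adipocytes. The mean of Ifih1 was 2.85 ± 0.249 RPKM in iWAT, 2.57 ± 0.102 in eWAT and 0.814 ± 0.104 in BAT (n = 6 each). Its difference between the white depots was small (1.12-fold, adjusted p = 0.021) and the samples overlapped. That call was lost without scaling (log2 fold change 0.082, adjusted p = 0.29), in 1 fit of all 18 samples (0.14, adjusted p = 0.072), with limma on RPKM (0.11 and 0.14, adjusted p = 0.073 and 0.072) and within each lane. Both depots exceeded BAT in all samples (2.30-fold and 2.1-fold, adjusted p = 1.9e-09 and 6.7e-09). Ddx58 was 1.36-fold higher in iWAT than in eWAT (adjusted p = 6.0e-04) and 1.26-fold higher in iWAT than in BAT (adjusted p = 0.0046). For eWAT over BAT it gave -0.09 on the log2 scale (adjusted p = 0.41), which turned to 0.83 without scaling. Dhx58 was 1.5-fold higher in eWAT than in iWAT (adjusted p = 0.0016) and 1.80-fold higher in eWAT than in BAT (adjusted p = 3.8e-05), both without overlap. For iWAT over BAT, Dhx58 gave 0.24 (adjusted p = 0.13), and it passed without iWAT sample 2 (0.31, adjusted p = 0.033) or BAT sample 18 (0.32, adjusted p = 0.044).

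Of the 18 antiviral effectors, 9 were higher in iWAT, 4 were higher in eWAT and 5 did not pass between the white depots. The shares of all genes were 34.1% higher in iWAT and 34.5% higher in eWAT. All 3 genes of the Ifit proteins, which bind foreign RNA, were higher in iWAT than in eWAT. Ifit3 had 12.6 to 17.5 RPKM in iWAT (median 13.1), 3.64 to 7.07 in eWAT (median 5.88) and 1.76 to 4.39 in BAT (median 2.62). It was 2.54-fold higher in iWAT than in eWAT (log2 fold change 1.35 ± 0.16, adjusted p = 1.2e-05) and 3.19-fold higher than in BAT (adjusted p = 4.8e-07), both without overlap. For eWAT over BAT, Ifit3 gave 0.35 (adjusted p = 0.16), which passed without BAT sample 5, the highest of the BAT samples (0.52, adjusted p = 0.033).

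Ifit1 ranged from 3.23 to 4.84 RPKM in iWAT (median 3.91), from 1.22 to 2.21 in eWAT (median 1.75) and from 0.914 to 1.74 in BAT (median 1.33). All iWAT samples lay above all others. The difference was 2.29-fold over eWAT (adjusted p = 1.1e-05) and 1.98-fold over BAT (adjusted p = 3.3e-05), while eWAT over BAT gave -0.19 (adjusted p = 0.34), or 0.73 without scaling. Ifit2 was 2.63 to 5.26 RPKM in iWAT (median 3.37), 1.80 to 2.54 in eWAT (median 2.00) and 1.52 to 2.85 in BAT (median 1.87). It was 1.77-fold higher in iWAT than in eWAT adipocytes (adjusted p = 9.3e-04), without overlap, and 1.45-fold higher in BAT than in eWAT (adjusted p = 0.0051), a direction that turned to 0.38 in favour of eWAT without scaling.

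Of the 3 members that encode oligoadenylate synthetases, which activate RNase L, Oas1a and Oas3 were higher in eWAT than in iWAT and Oas2 did not pass. Oas3 was 0.182 to 0.336 RPKM in iWAT (median 0.280), 0.633 to 1.05 in eWAT (median 0.902) and 0.0058 to 0.0505 in BAT (median 0.0356). Its fold changes were 3.17 for eWAT over iWAT (log2 fold change -1.66 ± 0.16, adjusted p = 1.8e-06), 5.16 for iWAT over BAT (adjusted p = 2.1e-06) and 16.7 for eWAT over BAT (adjusted p = 1.1e-09). The tissues did not overlap, but every value was low. Oas3 had 1 to 9 reads in the BAT samples, against 26 to 53 in iWAT and 111 to 188 in eWAT. It passed the filter of a mean of 10 reads through the white samples, so the size of both folds over BAT is uncertain.

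Oas1a had 1.25 to 2.16 RPKM in iWAT (median 1.66), 2.81 to 4.01 in eWAT (median 3.65) and 0.183 to 0.411 in BAT (median 0.251). It was 2.11-fold higher in eWAT than in iWAT (adjusted p = 5.9e-06), and 4.11-fold and 8.89-fold above BAT (adjusted p = 7.4e-08 and 2.1e-10). Oasl1, a brake on the translation of Irf7, was 1.48 to 2.92 RPKM in iWAT (median 1.75), 3.20 to 4.69 in eWAT (median 4.09) and 0.126 to 0.284 in BAT (median 0.211). It was 2.00-fold higher in eWAT than in iWAT (adjusted p = 8.1e-05), and 6.27-fold and 12.8-fold above BAT (adjusted p = 2.5e-08 and 4.5e-11). For Oas1a and Oasl1 no 2 tissues overlapped. Between the white depots, Oasl1 stood lower where Irf7 stood higher, but the means of both were lowest in BAT (0.210 and 1.40 RPKM). A link between the 2 genes was not tested.

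Oasl2 followed with 1.54-fold more in eWAT than in iWAT (adjusted p = 0.0019), whereas Oas2 did not. Oas2 was 0.699 to 1.31 RPKM in iWAT (median 0.993), 0.810 to 1.66 in eWAT (median 1.34) and 0.678 to 1.48 in BAT (median 0.990), and the tissues overlapped. Between the white depots it missed the threshold (log2 fold change -0.40, adjusted p = 0.056) but passed without iWAT sample 1 (-0.46, adjusted p = 0.036) or eWAT sample 2 (-0.51, adjusted p = 0.0091) and without scaling (-0.47, adjusted p = 0.038). With TMM, Oas2 was 1.65-fold higher in BAT than in iWAT (adjusted p = 0.0040), which turned to 0.14 on the log2 scale in favour of iWAT without scaling. For eWAT over BAT, Oas2 gave -0.30 (adjusted p = 0.20), or 0.62 without scaling. Reads of the Oas, Ifit, Ifitm, Gbp and Mx families can be shared between near-identical copies, so their split within a family is uncertain.

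The entry-blocking proteins Ifitm1 and Ifitm2 did not pass between the white depots (log2 fold changes 0.03 and -0.05, adjusted p = 0.89 and 0.58). Ifitm3 was 1.41-fold higher in iWAT (adjusted p = 0.030), with sample 5 the highest of a wide iWAT range at 154 RPKM. The call was lost without any 1 of iWAT samples 1 and 5 and eWAT samples 1, 2 and 5 (0.34 to 0.47, adjusted p = 0.057 to 0.072). All 3 were higher than BAT in both depots, by 1.47-fold to 2.33-fold. Bst2, which tethers budding virus, had 20.8 to 35.2 RPKM in iWAT (median 26.1), 18.1 to 24.6 in eWAT (median 23.4) and 9.37 to 13.1 in BAT (median 10.0). It was 1.65-fold above BAT in iWAT (adjusted p = 7.9e-05) and 1.39-fold in eWAT (adjusted p = 4.0e-04). The white depots overlapped for Bst2 (log2 fold change 0.27, adjusted p = 0.063), and the difference passed without iWAT sample 2, 3 or 16 (0.31 to 0.33, adjusted p = 0.028 to 0.047) and with DESeq2 (0.29, adjusted p = 0.042). The row of Ifitm2 overlaps one of LOC631287.

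Xaf1, an antagonist of the caspase inhibitor XIAP, was 1.42 to 2.35 RPKM in iWAT (median 1.68), 0.768 to 1.2 in eWAT (median 1.05) and 1.14 to 1.34 in BAT (median 1.22). It was 1.78-fold higher in iWAT than in eWAT (adjusted p = 1.0e-04), without overlap. With TMM it was 1.81-fold higher in BAT than in eWAT (adjusted p = 8.4e-06), again without overlap, but without scaling the log2 fold change turned to 0.07 in favour of eWAT. For iWAT over BAT, Xaf1 gave -0.05 (adjusted p = 0.74), or 0.83 without scaling.

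The other 5 effectors were Isg20, an exonuclease, the GTPases Mx1 and Mx2, Rsad2 (viperin) and Ifi35. Isg20, Mx2, Rsad2 and Ifi35 were 1.56-fold, 2.20-fold, 1.46-fold and 1.47-fold higher in iWAT than in eWAT adipocytes (adjusted p = 3.5e-04, 0.0015, 0.040 and 2.7e-05), and with TMM none of them passed between eWAT and BAT. Without scaling all 4 were higher in eWAT than in BAT, with log2 fold changes of 1.02, 0.92, 1.03 and 0.95, and with limma on RPKM they passed too. The row of Ifi35 overlaps one of Vat1. Only Isg20 and Ifi35 did not overlap between the white depots. Rsad2 was the least stable of them, since its call was lost without iWAT sample 1, 4 or 5 or eWAT sample 1, 2, 4 or 5 (log2 fold change 0.42 to 0.55, adjusted p = 0.060 to 0.094). Mx1 and Mx2 were low, with means of 0.220 and 0.511 RPKM in iWAT. Mx1 gave -0.07 between the white depots (adjusted p = 0.76) and was 2.29-fold and 2.44-fold above BAT (adjusted p = 7.7e-05 and 2.2e-04).

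Isg15, a ubiquitin-like protein, and Usp18, the protease that removes it and that also damps the type I receptor, were both higher in iWAT. Isg15 ranged from 5.36 to 10.4 RPKM in iWAT (median 6.52), from 3.54 to 6.11 in eWAT (median 5.25) and from 1.61 to 2.41 in BAT (median 2.13). It was 1.38-fold higher in iWAT than in eWAT (adjusted p = 0.029), with overlap, and this was lost without iWAT sample 5 or eWAT sample 1, 3 or 16 (log2 fold change 0.34 to 0.44, adjusted p = 0.055 to 0.068). It was 2.19-fold and 1.61-fold above BAT (adjusted p = 4.8e-06 and 5.8e-04). Usp18 stood at 1.69 to 2.80 RPKM in iWAT (median 2.03), 0.602 to 1.19 in eWAT (median 0.924) and 0.715 to 1.03 in BAT (median 0.901). All iWAT samples were above all eWAT samples, by 2.47-fold on average (log2 fold change 1.30 ± 0.17, adjusted p = 2.0e-05), and Usp18 was 1.62-fold higher in iWAT than in BAT (adjusted p = 6.8e-04). It was 1.5-fold lower in eWAT than in BAT with TMM (adjusted p = 0.0090), which turned to 0.33 on the log2 scale in favour of eWAT without scaling. The row of Usp18 overlaps one of LOC100504054 (1.32 RPKM on average) and that of Isg15 one of Plekhn1 (2.41), so some reads could belong to those.

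All 3 GTPases of the interferon-gamma response were higher in iWAT than in eWAT adipocytes, each without overlap. Gbp2 had 26.9 to 41.3 RPKM in iWAT (median 37.0), 8.47 to 23.6 in eWAT (median 16.5) and 4.83 to 8.21 in BAT (median 5.83). It was 2.31-fold higher in iWAT than in eWAT (log2 fold change 1.21 ± 0.22, adjusted p = 2.8e-04), and 3.88-fold and 1.70-fold above BAT (adjusted p = 2.1e-09 and 0.0037). Gbp3 was 6.42 to 10.3 RPKM in iWAT (median 7.46), 2.45 to 4.28 in eWAT (median 2.92) and 2.39 to 3.76 in BAT (median 2.77). Every iWAT sample exceeded every other sample. Gbp3 was 2.52-fold higher in iWAT than in eWAT (adjusted p = 4.2e-06) and 1.75-fold higher than in BAT (adjusted p = 8.3e-05), and with TMM it was 1.42-fold lower in eWAT than in BAT (adjusted p = 0.0099), which turned to 0.42 on the log2 scale in favour of eWAT without scaling. Irgm1, which acts on membranes around intracellular microbes, was 1.66-fold higher in iWAT than in eWAT (adjusted p = 4.5e-04) and 2.11-fold and 1.30-fold above BAT (adjusted p = 1.7e-06 and 0.0032).

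The genes of the immunoproteasome and of peptide transport into the endoplasmic reticulum were higher than BAT in both white depots, 4 of 4 in each comparison. The shares of all genes called in that direction were 38.1% in iWAT and 41.1% in eWAT. Psmb8 was 13.7 ± 2.36 RPKM in iWAT, 13.8 ± 1.02 in eWAT and 2.79 ± 0.395 in BAT, with fold changes over BAT of 3.20 and 3.29 (adjusted p = 8.0e-10 and 5.5e-11). Between the white depots Psmb8 gave -0.01 ± 0.09 on the log2 scale (adjusted p = 0.93) and Tap1 gave 0.20 ± 0.11 (adjusted p = 0.12). Psmb9 and Tap2 were 1.28-fold and 1.31-fold higher in iWAT (adjusted p = 0.0057 and 0.0028). For eWAT over BAT, Tap2 was 1.2-fold higher (adjusted p = 0.023), and that was lost without BAT sample 5, 16 or 18 (log2 fold change 0.18 to 0.20, adjusted p = 0.055 to 0.071). The rows of Psmb9 and Tap1 overlap each other. That of Tap2 overlaps rows of LOC100502931 and LOC100505010 (6.48 and 10.7 RPKM on average).

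**Figure D5:**
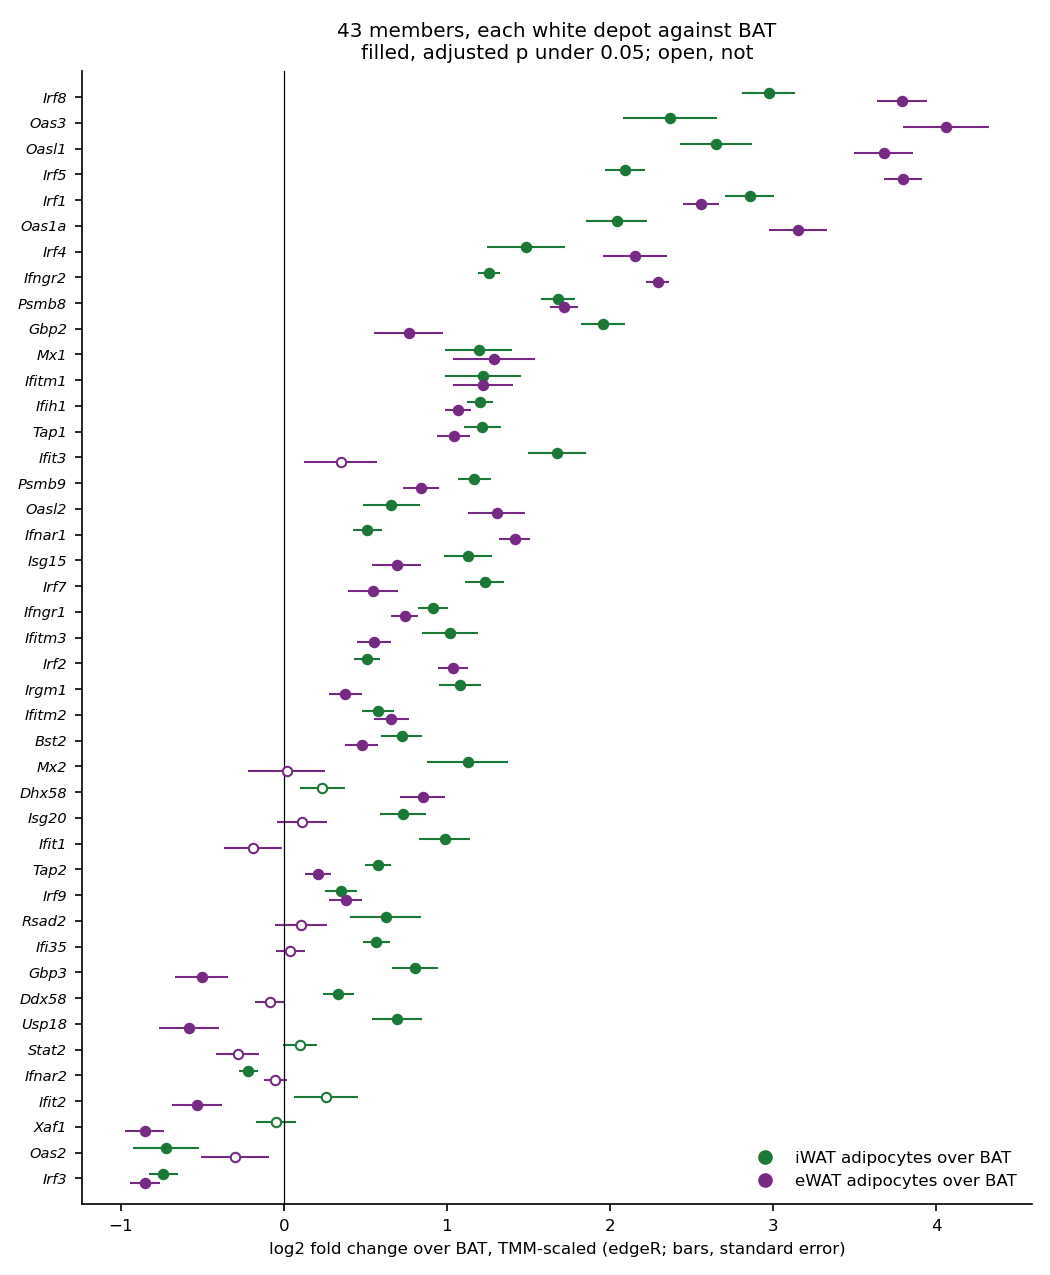
Log2 fold change over BAT (x axis, edgeR with TMM) of the 43 members (y axis), for iWAT adipocytes (green) and eWAT adipocytes (purple) against the same 6 BAT samples. Bars are standard errors and filled points passed an adjusted p of 0.05. Members are ordered by the mean of both values, with Irf8, Oas3, Oasl1, Irf5 and Irf1 at the top, and Irf3 passed the threshold below 0 in both, which turned to 0.12 and 0.06 without scaling.

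The members fell into 10 patterns of calls over the 3 comparisons. The largest held 10 members with the order eWAT, iWAT, BAT from high to low (Irf2, Irf4, Irf5, Irf8, Ifnar1, Ifngr2, Oas1a, Oas3, Oasl1 and Oasl2). A further 9 had the order iWAT, eWAT, BAT (Irf7, Ifngr1, Ifih1, Ifitm3, Isg15, Gbp2, Irgm1, Psmb9 and Tap2). In 8, both white depots were above BAT with no call between them (Irf1, Irf9, Mx1, Bst2, Ifitm1, Ifitm2, Psmb8 and Tap1). In 7, iWAT was above eWAT and BAT with no call between these 2 (Ddx58, Ifit1, Ifit3, Isg20, Mx2, Rsad2 and Ifi35). The remaining patterns held 1 or 2 members each, namely Usp18 with Gbp3, Ifit2 with Xaf1, Ifnar2 with Oas2, and Dhx58, Irf3 and Stat2 alone. The share of all genes in each pattern was not counted. Since 68.6%, 75.3% and 82.5% of all genes were called in the 3 comparisons, these counts describe the list and need not be particular to it.

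Other genes of the pathway were taken from a list of 89, of which 84 had a row and 66 were tested. Of the 17 interferon genes with a row, 12 had 0 reads in every sample and none passed the count filter of a mean of 10 reads. Ifnb1, the first type I interferon made on sensing, was the one with most reads, at 0.0418 to 0.473 RPKM in iWAT (median 0.317) and 0.0947 to 1.18 in eWAT (median 0.539), with at most 27 reads in a sample. It had 0 reads in all 6 BAT samples, which allows up to 0.17 RPKM in the shallowest of them (3 reads, counting error only). Ifng reached 5 reads at most, and 3 other interferon genes had 1 to 3 reads at most. The interferon genes were not tested here.

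Of the class I chain genes, B2m and H2-K1 were higher in iWAT than in eWAT (log2 fold changes 0.43 and 0.45, adjusted p = 0.016 and 0.0079), and H2-D1 did not pass (0.13, adjusted p = 0.26). These 3 genes were above BAT by 2.16 to 2.25 in iWAT and by 1.76 to 2.06 in eWAT on the log2 scale.

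Of the 66 tested pathway genes, 33 were higher in iWAT and 16 in eWAT adipocytes, against 34.1% and 34.5% of all genes. Of the 15 DNA and RNA sensing genes, 10 were higher in eWAT and 1 in iWAT, led in eWAT by the cytosolic DNA sensor Aim2 (-2.04 ± 0.16, adjusted p = 4.0e-07) and the endosomal RNA sensor Tlr7 (-1.96 ± 0.14, adjusted p = 3.3e-07). Of the 29 further interferon-stimulated genes tested, 18 were higher in iWAT and 3 in eWAT. Among all 66 tested pathway genes, the largest iWAT values belonged to the GTPase Tgtp1 (1.92 ± 0.30, adjusted p = 9.8e-05) and the chemokine Cxcl9 (1.83 ± 0.29, adjusted p = 9.8e-05). Against BAT, 50 pathway genes were higher and 8 lower in iWAT, and 44 were higher and 14 lower in eWAT, against 38.1% and 37.2% and against 41.1% and 41.4% of all genes. The cytokine inhibitor Socs3 had the largest value in both (6.53 and 5.90), followed by the chemokine Cxcl10 in iWAT (5.00) and Tlr7 in eWAT (5.09). The lowest value against BAT was that of Ifi27l1 in both (-2.42 in iWAT and -3.08 in eWAT). Next came Mavs in iWAT (-1.50, with -1.51 in eWAT) and Tgtp2 in eWAT (-2.21, with -0.52 in iWAT).

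Markers of several cell types moved with these tissue differences, and their part in them was not tested. All 11 macrophage markers were higher in eWAT than in iWAT adipocytes, as were 11 members, Irf5 and Irf8 among them, while 21 members were lower in eWAT. Cd68 was 140 ± 32.8 RPKM in iWAT, 567 ± 93.3 in eWAT and 3.11 ± 0.813 in BAT. The 5 endothelial markers went the other way, all higher in iWAT than in eWAT, with sums of 185 to 522 RPKM in iWAT, 60.9 to 149 in eWAT and 79.7 to 182 in BAT. The sum of 7 dendritic cell markers was 17.3 to 24.6 RPKM in iWAT, 56.9 to 119 in eWAT and 2.63 to 3.32 in BAT, with means of 16.3, 89.8 and 0.354 for Itgax alone, which macrophages of obese fat also carry. Of the 5 dendritic cell markers tested between the white depots, 3 were higher in iWAT and 1 in eWAT. Sums of the 4 B cell markers (0.528 to 2.17 RPKM over all samples) and of the 8 T and NK cell markers (0.217 to 1.42) were low in every tissue, with no marker at 0 in all samples of a tissue.

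The remaining marker lists were those of adipocytes (5 of 5 higher in iWAT than in eWAT, sums of 11221 to 15701 RPKM, 2511 to 7806 and, in BAT, 5402 to 6631), brown adipocytes (2213 to 3015 RPKM in BAT and at most 16.7 elsewhere), fibroblasts and progenitors (34.2 to 69.7, 35.6 to 57.5 and 13.5 to 21.9), mesothelium (at most 0.0808, 2.65 and 0.0673) and skeletal muscle (4.29 to 16.9, 1.27 to 4.94 and 1.52 to 106). Of the mesothelial markers, 1 had 0 reads in every BAT sample.

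Within a tissue, 6 members were set against Cd68 over the 6 samples, which makes 18 relations with Benjamini-Hochberg adjusted values from exact permutation tests. The smallest p that 6 samples allow is 0.00278, which over 18 relations adjusts to no less than 0.05, so no single relation could pass alone. None passed, and 2 had an unadjusted p of r under 0.05. Both were for Irf5. In iWAT, Pearson's r was 0.929 (exact permutation p = 0.0097, adjusted p = 0.175) and Spearman's rho 0.943 (p = 0.017, adjusted p = 0.30 by the same exact test). In eWAT, r was 0.924 (exact permutation p = 0.019, adjusted p = 0.175) and rho 0.886 (p = 0.033, adjusted p = 0.30, exact). Leaving out the 2 samples whose Cd68 lay farthest from its median, r was 0.760 and 0.742. For Isg15, r was 0.282 in iWAT and -0.767 in eWAT (exact permutation p = 0.60 and 0.099). Lanes held too few samples of a depot for a value within each.

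Samples of one tissue were not ordered alike for all members. Ranks are by deposited RPKM, without TMM scaling. Among the iWAT samples, the TMM factor was highest in samples 5 and 1 (1.31 and 1.26) and lowest in sample 2 (1.14). Among the eWAT samples it was lowest in sample 4 (1.22). The part of these factors in the ranks was not tested. In iWAT adipocytes, sample 1 was the highest of 6 for 19 members, among them all 3 Ifit genes, the RNA helicase Ifih1 and the 4 genes of the immunoproteasome and peptide transport. Sample 5 was the highest for another 19, among them 5 of the 8 interferon regulatory factors, Stat2, 3 of the 4 receptor subunits, the 3 Ifitm genes and Isg15. The lowest value was in sample 2 for 18 members. In eWAT adipocytes, sample 16 was the highest for 14 members and samples 3 and 4 for 11 each. In BAT, sample 5 was the highest for 14 members, the 3 Ifit genes included, and the lowest for 11, the 3 Ifitm genes included.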

How the data were processed

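RNA was sequenced from 6 samples each of iWAT adipocytes, eWAT adipocytes and whole BAT of mice on a HFD. Per the submitters' processing notes, the authors trimmed reads with cutadapt 1.16 and aligned them with HISAT2 2.1.0 to the mm9 genome. The counting program, the annotation and the handling of strand are not given in the sources used here. The authors deposited 1 table per sample, with read counts per transcript row and RPKM, the counts scaled by transcript length and by mapped reads, side by side. All sample columns were used. The 53445 rows carry 52093 symbols, and the row with the highest mean RPKM stood for each symbol. All rows were named, so none was left out of the library sizes.

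Each pair of tissues was fitted on its own 12 samples, keeping genes whose count averaged 10 or more, and tested with edgeR 4.0.16 in R 4.3.3 (quasi-likelihood test, TMM, no covariate, two-sided), with Benjamini-Hochberg adjustment over all genes tested and a threshold of 0.05. Standard errors were derived from the F statistic. Groups did not overlap when the TMM-scaled RPKM ranges of their samples were apart. A floor of 3 reads was used for genes without reads, which covers counting error only. Correlations used exact permutation tests (two-sided, scipy 1.17.1) on log2(TMM-scaled RPKM + 0.1). Tables were handled with Python 3.11.15, numpy 2.4.6 and pandas 2.3.3, and plots drawn with matplotlib 3.10.9. The scripts were tested on simulated data. Counts of 24655056 to 42518483 reads per sample limit the precision of members below 1 RPKM. No 2 samples of a tissue agree within sampling noise, since chi-square over its degrees of freedom was at least 14.9.

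The members and lists were chosen with earlier results of these data known. Values are given for every Irf gene, Stat2, the 4 receptor subunits, the 5 most abundant members by mean RPKM per tissue, and the 5 with the largest fold change past the threshold per direction and comparison. Of the pathway genes, values are given for the 2 interferons with more than 3 reads in a sample (Ifnb1 and Ifng), B2m, H2-K1, H2-D1 and the 2 largest changes per direction. Other members named were chosen to account for the list. Alternatives were a replicate block, DESeq2 1.42.0, no scaling, no count filter, limma 3.58.1 on log2(RPKM + 0.1) and log2(RPKM + 1), summed rows, 1 fit over 18 samples, each sample left out, a fold threshold, lane, and other cutoffs and another marker for levels and correlations. Leaving out members whose rows overlap other symbols was added after seeing the data. Ifne1, Ifi27, Trim30, Ifit3b and Gbp7 were not analysed here, and 1 pathway gene of the rule is not reported here.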

Additional observations from a re-analysis of the deposited data

Results flagged for a closer look

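In 4 of the 129 groups of 6 RPKM values (43 members in 3 tissues), 1 sample stood apart from the other 5 by Dixon's criterion, where chance at 1 in 20 gives 6.45. Irf8 was 10.8 RPKM in eWAT sample 3 (2272 reads), against 7.79 to 8.64 in the others. Ifit3 was 17.5 RPKM in iWAT sample 1 (1064 reads), against 12.6 to 13.3, and Psmb9 was 4.58 in the same sample (494 reads), against 3.34 to 3.64. Gbp2 was 8.21 RPKM in BAT sample 5 (505 reads), against 4.83 to 6.04.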

How the results depend on the processing

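The counts of members called between iWAT and eWAT adipocytes, iWAT and BAT, and eWAT and BAT were 32, 39 and 33. Of all genes tested, 68.6%, 75.3% and 82.5% were called. The member counts were 35, 39 and 33 with DESeq2, 31, 39 and 33 in 1 fit of 18 samples, 29, 41 and 38 with limma on RPKM at either pseudocount, 29, 41 and 40 without scaling, and 29 to 34, 39 to 40 and 32 to 34 with 1 sample left out. For all genes, DESeq2 called 13719 of 19623, 14910 of 19745 and 16585 of 20076. The fit of 18 samples called 13157, 15019 and 16611 of 19941, and limma on log2(RPKM + 0.1) called 13806 of 21341, 17154 of 21613 and 17712 of 21879. A log2 fold change of at least 1 left 11 of the 43 members (6 higher in iWAT, 5 in eWAT), 21 (all higher in iWAT) and 16 (all higher in eWAT), since that setting only adds a condition. It left 4892 of 19623, 7363 of 19745 and 9830 of 20076 of all genes. The 24 members whose rows overlap no other symbol held 20, 21 and 18 calls, since fewer genes were counted. No count filter and summed rows gave 32, 39 and 33, and lane as a covariate gave 31 between the white depots.

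With the sample number as a replicate block the member counts were 30, 36 and 31. In that setting 12836 of 19623, 12555 of 19745 and 15149 of 20076 of all genes were called. The block lost Ifih1, Rsad2 and Ifitm3 and added Oas2 between the white depots, lost Irf9 (0.30, adjusted p = 0.052), Ifnar2 and Rsad2 for iWAT against BAT, and lost Irf9 (0.29, adjusted p = 0.056), Irgm1 and Tap2 and added Stat2 for eWAT against BAT. The mean correlation between deviations of same-numbered samples from their tissue means was -0.0152 (-0.223 to 0.339), -0.00985 (-0.134 to 0.0961) and 0.0152 (-0.0309 to 0.0628) in the 3 comparisons. These values rest on 6, 4 and 4 pairs and cannot decide whether a number marks a mouse.

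Where the value or its alternative passed the threshold, a turned direction was found only against BAT and only without TMM scaling. Values near 0 that passed on neither side changed sign more widely, such as Ifitm1 between the white depots (-0.13 to 0.14 with 1 sample left out). For eWAT over BAT, the log2 fold change without scaling, with limma on log2(RPKM + 0.1) and with limma on log2(RPKM + 1) was 0.83, 0.49 and 0.36 for Ddx58, 0.42, 0.084 and 0.066 for Gbp3, 0.73, 0.38 and 0.24 for Ifit1, 0.38, 0.079 and 0.051 for Ifit2, 0.86, 0.53 and 0.51 for Ifnar2, and 0.33, 0.0016 and 0.0043 for Usp18. It turned without scaling alone for Irf3 (0.059), Oas2 (0.62), Stat2 (0.63) and Xaf1 (0.065). For iWAT over BAT the values were 0.64, 0.39 and 0.37 for Ifnar2 and 0.83, 0.51 and 0.33 for Xaf1, and without scaling alone 0.12 for Irf3 and 0.14 for Oas2. Without scaling, Stat2 (0.96), Dhx58 (1.09) and Ifit2 (1.13) passed for iWAT over BAT and Ifit3 (1.27) for eWAT over BAT, while Isg15 (0.40), Ifitm3 (0.43) and Rsad2 (0.48) no longer passed between the white depots. Scaling decides these directions, and which one is nearer to RNA per cell was not tested. Members at 1 RPKM or more numbered 39, 39 and 31 in iWAT, eWAT and BAT, and 39, 38 and 36 on the TMM scale, 39, 37 and 27 when every sample had to reach it, and 41, 41 and 37 at 0.5 RPKM. Depth limits the interferon genes and the members below 1 RPKM, such as Oas3 and Mx1.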
